A study of Homo sapiens with 6 samples.

Results

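The insulin-like growth factor (IGF) axis was described in MIA PaCa-2 cells through the mRNAs of 10 genes, namely the 7 IGF binding proteins IGFBP1 to IGFBP7 and the 3 receptors IGF1R, IGF2R and INSR. The genes were taken by symbol, each symbol matched 1 Ensembl ID, and all 10 were among the 35716 genes counted. MIA PaCa-2 is an established human line from a pancreatic ductal carcinoma, labelled as wild type in both groups. The triptolide group held 3 libraries of cells treated with 10 nM of the plant diterpenoid triptolide for 24 h, a compound known to bind XPB in the general transcription factor TFIIH. The design text calls this group the control group. The untreated group held 3 libraries of cells kept for 24 h in DMEM with 10% FBS, and the labels name no vehicle. The series title sets the comparison among questions of autophagy and extracellular matrix. Whether the replicates were separate cultures is not stated in the labels, and p-values therefore cover just the spread among these 6 libraries, which may be technical.

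IGF1 and IGF2 signal mainly through IGF1R, a receptor tyrosine kinase closely related to the insulin receptor INSR, with which it also forms hybrids. IGFBP1 to IGFBP6 are secreted proteins that hold IGFs with high affinity and so limit or deliver them, whereas IGFBP7 binds IGFs weakly and is known from vessel walls and matrix. IGF2R is the cation-independent mannose 6-phosphate receptor, which carries acid hydrolases to lysosomes and clears IGF2 from the cell surface. Proteases such as PAPP-A release IGFs by cutting the binding proteins. Serum in the medium is a source of IGFs and binding proteins beside what the cells make.

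Total counts were 16302961, 22549382 and 23262713 in triptolide libraries 1 to 3 and 17566458, 18215007 and 19600354 in untreated libraries 1 to 3. Untreated library 3 stood apart from the other untreated libraries, with a chi-square over degrees of freedom of 45.9 and 33.7 against them, where the other 2 differed by 5.46. Within the triptolide group this value lay between 29.1 and 70.3. Between the groups it lay between 31.2 and 88.2, so the libraries did not separate by treatment on this measure. Of 7 markers of ductal and carcinoma epithelium, the keratin genes KRT7, KRT8, KRT18 and KRT19 and the mucin gene MUC1 were present. Of the 5 tested, KRT18 fell by 0.79 on the log2 scale (edgeR adjusted p = 0.0123). KRT19 was lower in each triptolide library without passing (adjusted p = 0.0691) and was called by DESeq2. EPCAM had 3 counts in the triptolide and 4 in the untreated libraries, and CDH1 had 16 and 5, so both defining epithelial adhesion genes were nearly absent. Fewer cells expressing a gene and less RNA per cell cannot be told apart in such bulk libraries, and all values are relative to the other mRNAs of a library.

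RefSeq promoter windows of 300 bases (GRCh38.p14, 250 before and 50 after the start) were found for 8 of the 10 genes and not for IGFBP1 and IGFBP7, with 3 windows for IGFBP2. The sequences below are the 250 bases before the start of IGFBP3 and IGFBP5, which have a window, few reads and a higher level in each triptolide library, and of the receptor gene with the most reads. Capitals mark the GC box GGGCGG, the site bound by SP factors, on either strand. No TATAAA and no CAAAACA, the core of FOXO-type insulin response elements, was found in these 3 on either strand.
IGFBP3, chr7:45921273-45921522, minus strand: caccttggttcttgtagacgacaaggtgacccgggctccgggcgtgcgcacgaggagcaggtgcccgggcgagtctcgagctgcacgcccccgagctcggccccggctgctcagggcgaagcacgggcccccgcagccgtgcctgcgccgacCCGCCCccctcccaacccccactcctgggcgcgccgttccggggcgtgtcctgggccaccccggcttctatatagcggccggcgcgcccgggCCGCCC
IGFBP5, chr2:216695550-216695799, minus strand: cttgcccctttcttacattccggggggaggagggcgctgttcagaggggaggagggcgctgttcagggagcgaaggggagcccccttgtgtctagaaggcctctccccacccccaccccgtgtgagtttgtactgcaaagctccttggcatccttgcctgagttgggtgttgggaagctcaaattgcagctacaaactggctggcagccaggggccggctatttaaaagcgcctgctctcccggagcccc
IGF2R, chr6:159968832-159969081, plus strand: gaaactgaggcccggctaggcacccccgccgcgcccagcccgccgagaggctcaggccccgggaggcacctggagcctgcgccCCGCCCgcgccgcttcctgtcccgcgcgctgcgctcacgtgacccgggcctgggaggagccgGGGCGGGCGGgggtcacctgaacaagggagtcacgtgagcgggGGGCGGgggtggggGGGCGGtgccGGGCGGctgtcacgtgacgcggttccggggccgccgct
IGF2R held 6 GC boxes in these bases, counting overlapping matches each, IGFBP3 held 2 and IGFBP5 held 0. The INSR window held 4 and that of IGF1R 2. GGGCGG was present in a window of 7 of the 8 genes and in 45.0% of all 35116 windows in the table. TATAAA was found in IGFBP4 alone among the 8 and in 11.5% of all windows, and CAAAACA in 0 of the 8 and in 4.92% of all windows. These matches describe letters in a window, and a motif without a match says nothing about the binding of its factor.

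Of the 10 genes, 9 had enough reads to be tested, 1 rose and 1 fell with triptolide, and 7 did not pass. Over all 15202 genes tested, 10% rose and 5.82% fell at an edgeR adjusted p under 0.05, so the members' counts are no result about the family. IGFBP3 rose and IGFBP7 fell, both genes with few reads, while IGFBP6 and IGFBP4, the abundant binding proteins, and all 3 receptors did not pass the test. Levels are given as CPM, read counts relative to the TMM-scaled total of each library. The CPM of the groups did not overlap in 3 of the 9 tested genes, with IGFBP3 and IGFBP5 higher and IGFBP7 lower. Over all tested genes 36.7% did not overlap, 19.8% higher and 16.9% lower.

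**Figure D1:**
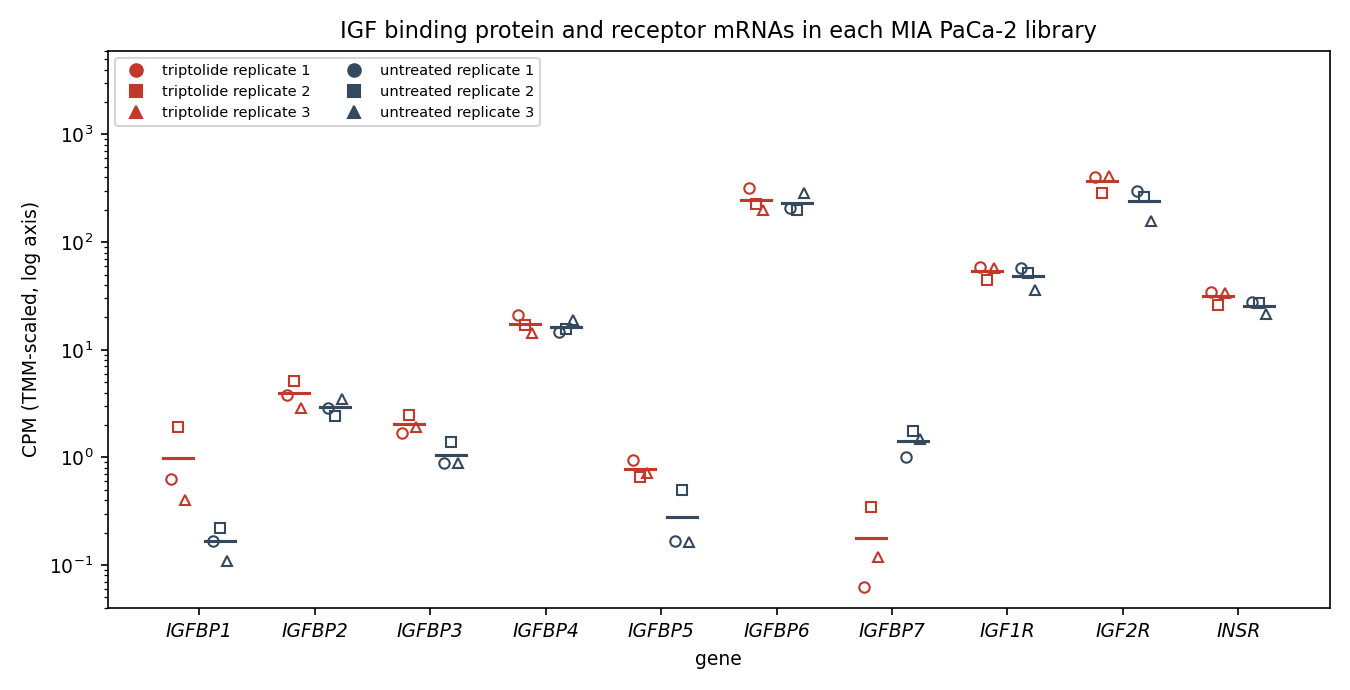
CPM (log axis) of the 10 genes in each library, with triptolide left and untreated right for each gene. Symbols are replicates and horizontal lines are group means. IGFBP1, IGFBP3 and IGFBP5 stood higher and IGFBP7 lower in each triptolide library, and IGFBP6 and IGFBP4 overlapped.

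IGFBP7 (ENSG00000163453), which encodes the matrix-bound, low-affinity member, had 1, 8 and 3 counts in triptolide libraries 1 to 3, against 18, 32 and 27 counts in untreated libraries 1 to 3. Each triptolide library stood below each untreated one. IGFBP7 fell to 0.177 ± 0.152 CPM with triptolide, against 1.42 ± 0.385 CPM untreated (SD, n = 3 each). The log2 fold change was -2.89 ± 0.48 (SE, edgeR adjusted p = 0.00208). This was 7.40-fold lower in a gene of low abundance, with 12 counts in the triptolide and 77 in the untreated libraries. With under 10 counts in each triptolide library, the gene passed the low-count filter only through the untreated libraries. The call held in each alternative in which the gene could be tested, with a log2 fold change between -3.80 and -2.58. These alternatives reused the same libraries and are no separate support.

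IGFBP3 (ENSG00000146674), the main carrier of IGFs in serum, had 27, 57 and 48 counts in the triptolide libraries, against 16, 25 and 16 counts in the untreated ones. On the CPM scale the lowest triptolide library, at 1.70, lay above the highest untreated one, at 1.38. IGFBP3 rose 1.94-fold to 2.03 ± 0.409 CPM with triptolide, against 1.05 ± 0.286 CPM untreated, with a log2 fold change of 0.95 ± 0.30 (SE, edgeR adjusted p = 0.0482). This call was at the edge of the threshold. The edgeR adjusted p was 0.126 and 0.0983 without triptolide libraries 2 and 3, and 0.154, 0.0577 and 0.128 without untreated libraries 1, 2 and 3. It was 0.0752 with DESeq2 and 0.0867 with scaling on ribosomal protein genes, and the direction was the same throughout.

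IGFBP5 (ENSG00000115461), a binding protein that attaches to matrix and is a substrate of PAPP-A and PAPP-A2, had 15, 15 and 18 counts in the triptolide libraries, against 3, 9 and 3 counts in the untreated ones. No triptolide library overlapped with an untreated one in CPM. With under 10 counts in each untreated library, the gene passed the low-count filter only through the triptolide libraries. The means were 0.772 ± 0.151 CPM with triptolide and 0.277 ± 0.191 CPM untreated, and the log2 fold change of 1.43 ± 0.46 (SE, edgeR adjusted p = 0.0539) did not pass. It passed without untreated library 2, which held the highest untreated value (log2 fold change 2.14, adjusted p = 0.0336), with limma-voom (adjusted p = 0.0382) and with no low-count filter in edgeR (adjusted p = 0.0436). The p-value of the unfiltered fit allowed little for the gene's own spread among replicates.

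IGFBP1 (ENSG00000146678), the binding protein that liver and decidua secrete and that insulin represses, had 10, 44 and 10 counts in triptolide libraries 1 to 3, against 3, 4 and 2 counts in untreated libraries 1 to 3. All 3 triptolide libraries stood higher, and triptolide library 2 stood far above the others of its group. With so few reads the gene did not pass the low-count filter and has no test in the fit to all 6 libraries. It passed the filter when certain single libraries were left out, as fewer libraries above the cutoff then sufficed. With 4 counts or fewer in each untreated library, it passed through the triptolide libraries alone. These tests therefore exist only because the gene was high there. Its edgeR adjusted p was then 0.0058 without triptolide library 3 (log2 fold change 2.94), and 0.0507, 0.0451 and 0.0859 without untreated libraries 1, 2 and 3. The ratio of summed counts, scaled to library size, was 6.03 with a 95% exact interval from 2.98 to 13.8, and 2.94 with an interval from 1.28 to 7.32 without triptolide library 2. These intervals cover counting error only. With no low-count filter its log2 fold change in edgeR was 2.53 ± 0.52 (SE) with an adjusted p of 4.65e-05, and 1.53 ± 0.64 with an adjusted p of 0.125 when triptolide library 2 was also left out. The p-values of these unfiltered fits allowed little for the gene's own spread among replicates. They are therefore not comparable with those of the main fit.

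IGFBP2 (ENSG00000115457), which carries an integrin-binding RGD sequence, had 60, 118 and 72 counts in the triptolide libraries, against 51, 44 and 63 counts in the untreated ones. The groups overlapped, at 3.93 ± 1.15 CPM with triptolide and 2.92 ± 0.518 CPM untreated, a log2 fold change of 0.43 ± 0.27 (edgeR adjusted p = 0.302). RefSeq (GRCh38.p14) lists IGFBP2 beside IGFBP5 and IGFBP1 beside IGFBP3 as neighbouring protein-coding genes, 2 pairs of adjacent members.

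IGFBP6 (ENSG00000167779), the binding protein that prefers IGF2 over IGF1, was the abundant member. It had 5058, 5210 and 5001 counts in the triptolide libraries, against 3698, 3613 and 5194 counts in the untreated ones. Triptolide library 1 and untreated library 3 were the high ones on the CPM scale, at 318 and 286 CPM, and the groups overlapped. The means were 248 ± 62.0 CPM with triptolide and 231 ± 47.6 CPM untreated, a log2 fold change of 0.11 ± 0.21 (edgeR adjusted p = 0.774). IGFBP4 (ENSG00000141753), the classic PAPP-A substrate, had 331, 391 and 357 counts with triptolide, against 259, 282 and 344 counts untreated. Its means were 17.4 ± 3.30 CPM with triptolide and 16.3 ± 2.30 CPM untreated, a log2 fold change of 0.09 ± 0.20 (edgeR adjusted p = 0.806). The groups overlapped, and the sign of both genes turned with an offset for GC content, without a call.

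**Figure D2:**
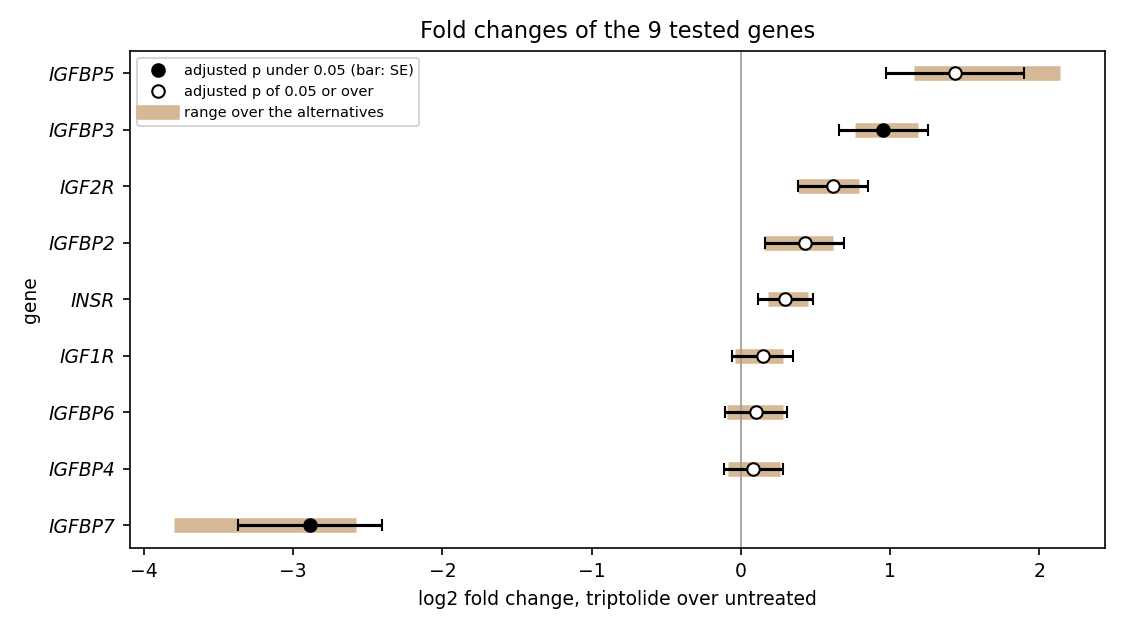
Log2 fold change of triptolide over untreated for the 9 tested genes, with the SE as black bars and the range over the alternatives in tan. Filled points had an edgeR adjusted p under 0.05. IGFBP7 at -2.89 and IGFBP3 at 0.95 are filled, and the ranges of IGFBP4, IGFBP6 and IGF1R cross 0.

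IGF2R (ENSG00000197081), the mannose 6-phosphate receptor, had 6466, 6568 and 10346 counts in triptolide libraries 1 to 3, against 5288, 4795 and 2875 counts in untreated libraries 1 to 3. On the CPM scale these were 407, 287 and 413 with triptolide and 296, 265 and 158 untreated, so that triptolide library 2 overlapped with untreated library 1. The means were 369 ± 70.9 CPM with triptolide and 240 ± 72.4 CPM untreated, and the log2 fold change of 0.62 ± 0.23 (SE, edgeR adjusted p = 0.0915) did not pass. Without untreated library 3, the lowest, the log2 fold change was 0.38 (adjusted p = 0.218), and without triptolide library 2 it was 0.78 (adjusted p = 0.0415). With no low-count filter the adjusted p was 0.0148, in a fit that allowed little for the gene's own spread among replicates.

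IGF1R (ENSG00000140443), the signalling receptor for both IGFs, had 932, 1022 and 1449 counts with triptolide, against 1029, 940 and 650 counts untreated. The means were 53.7 ± 7.83 CPM with triptolide and 48.4 ± 11.4 CPM untreated, a log2 fold change of 0.15 ± 0.20 (edgeR adjusted p = 0.664), and without untreated library 3 it was -0.04 (adjusted p = 0.908). INSR (ENSG00000171105), the insulin receptor, had 550, 595 and 844 counts with triptolide, against 493, 493 and 394 counts untreated. Its means were 31.4 ± 4.71 CPM with triptolide and 25.5 ± 3.34 CPM untreated, a log2 fold change of 0.30 ± 0.18 (edgeR adjusted p = 0.291). Both genes overlapped between the groups. An adjusted p over the threshold does not show that a gene was equal in the groups.

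The 3 receptors shared their pattern over the libraries, being lowest in untreated library 3 and high in triptolide libraries 1 and 3, with IGF1R about as high in untreated library 1. Their exons, merged over all annotated transcripts of a gene, come to 17.8, 13.9 and 10.5 kb for IGF2R, IGF1R and INSR. This length can exceed that of any single transcript. Genes with long merged exons moved as a class with untreated library 3. The median deviation of 1560 tested genes of 10 kb and over from their 6-library mean was -0.26 on the log2 scale there and 0.17 for 2590 genes under 2 kb. The median of the long genes was -0.03, -0.03 and 0.14 in triptolide libraries 1 to 3, and 0.13 and 0.07 in untreated libraries 1 and 2. Beside these, IGF2R stood at 0.49, -0.02 and 0.51 in triptolide libraries 1 to 3 and at 0.03 and -0.13 in untreated libraries 1 and 2. IGF1R stood at 0.22, -0.17 and 0.20 and at 0.20 and 0.05 in the same order, and INSR at 0.30, -0.11 and 0.26 and at -0.03 and -0.04. IGF2R deviated by -0.88, IGF1R by -0.49 and INSR by -0.37 in untreated library 3, while IGFBP6, of 1.35 kb, deviated by 0.28. The part of exon or transcript length in these values was not tested.

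**Figure D3:**
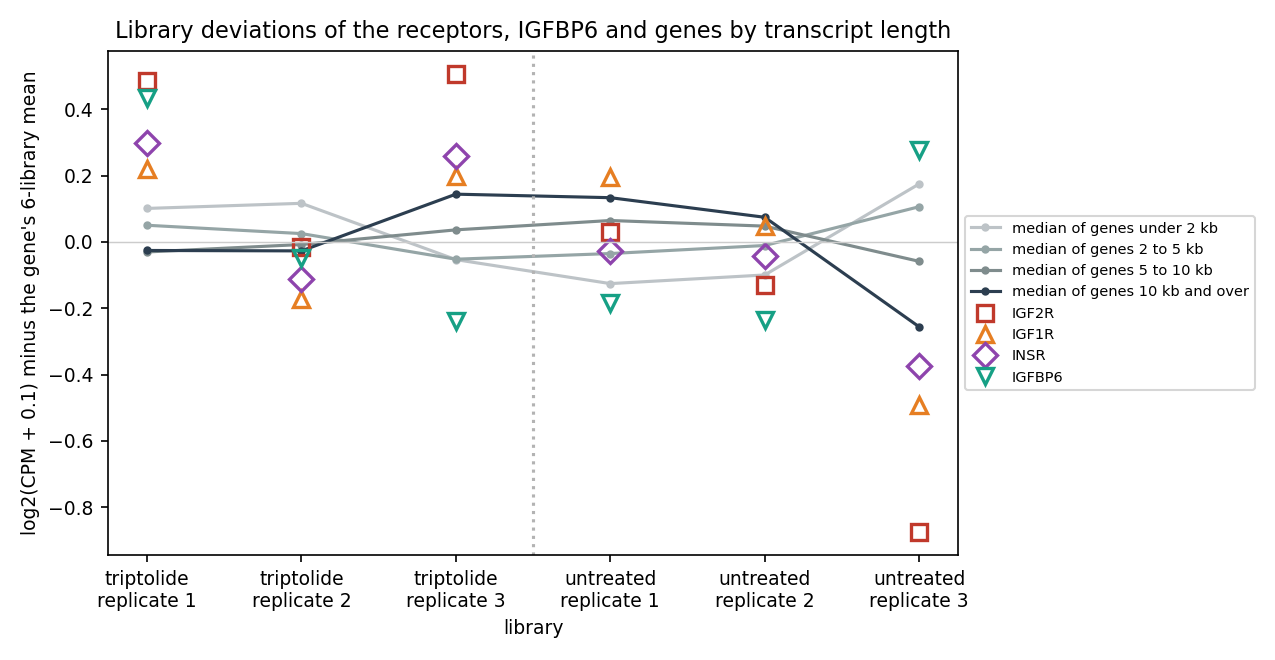
Deviation of log2(CPM + 0.1) from each gene's mean over the 6 libraries, triptolide libraries left and untreated libraries right. Lines are medians of all tested genes by merged exon length, which the title calls transcript length, and open symbols are single genes. In untreated library 3 the median of genes of 10 kb and over stood at -0.26 and the receptors stood below it.

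Relative to the other receptors within a library, IGF2R took 75.2%, 73.9% and 75.8% of the summed receptor level per kb in triptolide libraries 1 to 3, against 71.0%, 70.1% and 65.7% in untreated libraries 1 to 3. The groups did not overlap in this share, which was looked at after the values were known and has no test. IGF1R held 13.9%, 14.7% and 13.6% with triptolide, against 17.7%, 17.6% and 19.0% untreated. IRAIN, an antisense RNA at the IGF1R locus, had 2 counts in the triptolide and 8 in the untreated libraries, so reads counted to it were few. IGFBP7-AS1 and AIRN were looked for by symbol and were not matched to a counted gene, and further antisense genes were not analysed here.

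Levels of different genes were set side by side per kb of merged exon, in CPM per kb. Where the merged exons exceed the transcripts expressed, this level comes out too low. With triptolide the order was IGFBP6 at 184.5 ± 46.0, IGF2R at 20.7 ± 3.97, IGFBP4 at 7.90 ± 1.499, IGF1R at 3.85 ± 0.562 and INSR at 3.01 ± 0.451. In untreated cells the same 5 genes led in the same order, with IGFBP6 at 171.5 ± 35.3, IGF2R at 13.4 ± 4.06, IGFBP4 at 7.43 ± 1.04, IGF1R at 3.48 ± 0.815 and INSR at 2.44 ± 0.319. The ranges of IGF1R and INSR over the libraries overlapped in both groups, but within each of the 6 libraries IGF1R stood above INSR, the nearest pair being 2.56 and 2.07 CPM per kb in untreated library 3. IGF2R and IGFBP4 were separate in each group, at 16.1 to 23.1 against 6.47 to 9.46 with triptolide and at 8.86 to 16.6 against 6.59 to 8.60 untreated. IGFBP6 made up 94.0% to 95.5% of the summed binding protein level per kb in the triptolide libraries and 94.3% to 95.3% in the untreated ones, so the binding protein mRNA pool of both groups was nearly all IGFBP6.

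In the lower part of the order IGFBP7 changed its place most. It was the lowest of the 10 at 0.0919 ± 0.0786 CPM per kb with triptolide, where its range overlapped with that of IGFBP5 and it stood above IGFBP5 in library 2. It was the sixth at 0.736 ± 0.1996 CPM per kb untreated, where its range overlapped with that of IGFBP2. IGFBP2 stood at 0.825 ± 0.241 with triptolide and 0.612 ± 0.109 untreated, and IGFBP3 at 0.445 ± 0.0896 with triptolide and 0.230 ± 0.0626 untreated. IGFBP1, at 0.595 ± 0.497 with triptolide, overlapped with both of these in that group, and stood at 0.101 ± 0.0337 untreated. IGFBP5 stood at 0.120 ± 0.0235 with triptolide and 0.0430 ± 0.0297 untreated.

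Around these genes, lists of the IGF pathway held 85 genes, of which 83 were counted and 68 tested. Of the 68, 6 rose, 3 fell and 59 did not pass, against 10% higher and 5.82% lower over all tested genes. The median log2 fold change of the 68 was 0.10, beside -0.004 over all tested genes. Of the proteases of the binding proteins and their inhibitors, 4 of 6 tested genes rose and 1 fell, which is 5 of the 9 calls. The 7 genes of that list were chosen with earlier results of these data known.

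The ligand genes had hardly a read. IGF1 had 2, 4 and 4 counts in the triptolide libraries, against 1, 2 and 0 counts in the untreated ones, a ratio of 2.83 with a 95% exact interval from 0.727 to 15.97. IGF2 had 5, 3 and 2 counts with triptolide, against 0, 1 and 0 counts untreated, a ratio of 8.47 with an interval from 1.21 to 368. IGFALS, the acid-labile subunit that joins IGF and IGFBP3 in serum, had 10, 5 and 8 counts with triptolide, against 1, 1 and 3 counts untreated. None of the 3 passed the low-count filter. The insulin gene INS was looked for by symbol and was not matched to a counted gene.

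Among the proteases, PAPPA2, whose product cuts IGFBP3 and IGFBP5 and which placenta expresses strongly, had 52, 101 and 93 counts in the triptolide libraries, against 1, 4 and 3 counts in the untreated ones. It rose 24.8-fold to 3.80 ± 0.576 CPM, against 0.147 ± 0.0840 CPM untreated (edgeR adjusted p = 2.45e-05). With under 10 counts in each untreated library, PAPPA2 passed the low-count filter only through the triptolide libraries. PAPPA, the protease of IGFBP4, had 40, 94 and 73 counts with triptolide, against 15, 31 and 27 counts untreated. PAPPA rose 2.37-fold to 3.18 ± 0.828 CPM, against 1.35 ± 0.454 CPM untreated (edgeR adjusted p = 0.0180, and 0.0702 without untreated library 1). ADAM12, another protease of IGFBP3 and IGFBP5, had 150, 262 and 278 counts with triptolide and 17, 26 and 19 counts untreated (log2 fold change 3.21, adjusted p = 1.25e-05). These 3 protease genes stood higher in each triptolide library than in each untreated one, as did 19.8% of all tested genes. ADAM9, the most abundant protease gene of the list, overlapped between the groups. It stood at 272 ± 41.1 CPM with triptolide and 290 ± 58.4 CPM untreated (edgeR adjusted p = 0.784). ADAM28 had 8 counts with triptolide and 0 untreated and was not tested.

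The stanniocalcin genes, whose secreted products block PAPP-A and PAPP-A2, moved in opposite directions. STC1 had 632, 983 and 1148 counts in the triptolide libraries, against 412, 379 and 287 counts in the untreated ones, and rose 2.15-fold to 42.8 ± 3.02 CPM, against 19.9 ± 3.75 CPM untreated (edgeR adjusted p = 0.00208). STC2 had 11, 19 and 10 counts with triptolide, against 69, 86 and 51 counts untreated. STC2 fell to 0.640 ± 0.220 CPM, against 3.81 ± 0.978 CPM untreated, with a log2 fold change of -2.58 ± 0.33 (SE, edgeR adjusted p = 0.000415). Its triptolide libraries alone would not have passed the low-count filter, so STC2 was tested because of its untreated libraries. STC1 kept its call in all 17 alternatives and STC2 in all 16 that tested it, which reused the same libraries and are no separate support.

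Among the relatives with an IGFBP-like domain, 1 of 5 tested genes fell and 0 rose. CCN1, a matricellular protein, had 3740, 4367 and 4934 counts with triptolide, against 5331, 5658 and 5149 counts untreated, and fell by 0.52 on the log2 scale (edgeR adjusted p = 0.0401). That call was lost in 9 of 17 alternatives, with an adjusted p of up to 0.431 under scaling on ribosomal protein genes. Without triptolide libraries 2 and 3 the adjusted p was 0.1 and 0.159, and without untreated libraries 1 and 2 it was 0.112 and 0.174. HTRA4, a serine protease known from placenta and named here after its values were seen, had 9, 25 and 8 counts with triptolide, against 0, 1 and 1 counts untreated, and was not tested.

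Downstream, 0 of 16 tested adaptor and feedback genes passed in edgeR. SHC1 stood at 645 ± 33.3 CPM with triptolide and 472 ± 44.1 CPM untreated (adjusted p = 0.0689), and PTPN11 at 191 ± 36.0 and 213 ± 51.0 CPM in the same order (adjusted p = 0.657). Of the 16, 4 had an unadjusted p under 0.05 in edgeR. At an adjusted p under 0.05, DESeq2 called 1, SHC1, and limma-voom 0. Of 26 genes of PI3K, AKT and FOXO signalling, 1 rose and 1 fell. PHLPP1, a phosphatase that acts on AKT, rose 1.54-fold to 35.6 ± 5.26 CPM, against 23.1 ± 3.46 CPM untreated (edgeR adjusted p = 0.0388). PIK3CB, the beta catalytic subunit of PI3K, had 272, 667 and 703 counts with triptolide, against 800, 856 and 649 counts untreated, and fell by 0.78 on the log2 scale (edgeR adjusted p = 0.0301).

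Both of these calls were lost when certain single libraries were left out. The adjusted p of PHLPP1 was 0.0646 and 0.0801 without triptolide libraries 1 and 3, and 0.0603, 0.133 and 0.106 without untreated libraries 1, 2 and 3. That of PIK3CB was 0.0742 and 0.108 without untreated libraries 1 and 2. Of 12 genes for receptor processing and IGF2R partners, 1 rose, PCSK6, a proprotein convertase, which stood at 23.2 ± 4.79 CPM with triptolide and 13.4 ± 2.88 CPM untreated (edgeR adjusted p = 0.0297). Its adjusted p was 0.0724 and 0.0922 without triptolide libraries 1 and 3, and 0.0784 and 0.0896 without untreated libraries 2 and 3. Of the 3 IGF2 mRNA-binding protein genes, 0 passed in edgeR, with IGF2BP2 at 146 ± 6.03 CPM with triptolide and 142 ± 17.8 CPM untreated and IGF2BP3 at 107 ± 26.8 and 131 ± 39.98 CPM in the same order. Of these 3, 0 had an unadjusted p under 0.05 in edgeR, and DESeq2 and limma-voom called 0.

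**Figure D4:**
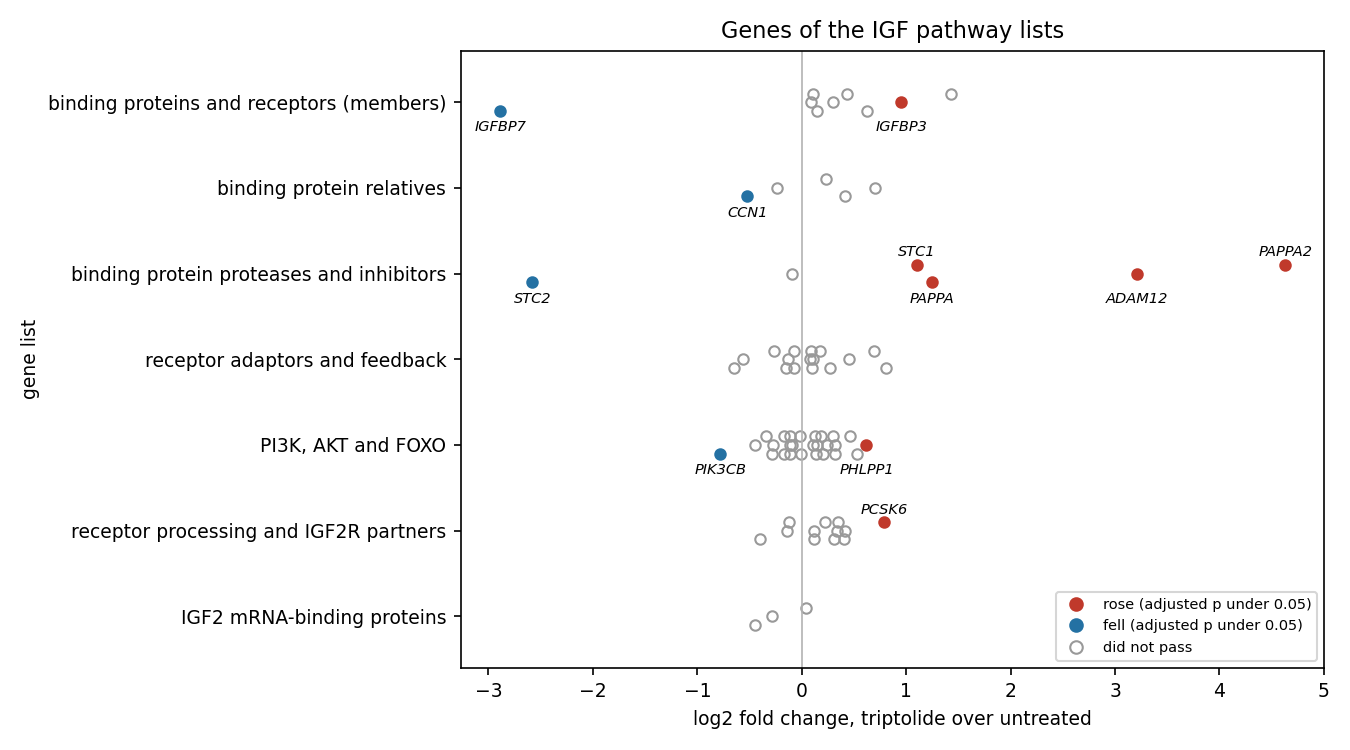
Log2 fold change of triptolide over untreated for each tested gene of the members and the IGF pathway lists, 1 point a gene. Filled red points rose and filled blue points fell at an edgeR adjusted p under 0.05. PAPPA2 at 4.63 and ADAM12 at 3.21 stand to the right, and IGFBP7 at -2.89 and STC2 at -2.58 to the left.

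Markers of other cell types moved in the same libraries. Of 12 trophoblast markers, the summed level was 521 to 886 CPM in the triptolide libraries and 8.30 to 9.02 CPM in the untreated ones. Most of it was CSH1 and CSH2, and 7 of 7 tested rose. Of these, CGA, PSG1, KISS1, HSD3B1 and CYP19A1 had under 10 counts in each untreated library. They passed the low-count filter only through the triptolide libraries, so the count of tested markers that rose depended partly on the filter. HSD3B1, ERVFRD-1, GCM1 and LGALS13 were at 0 counts in all untreated libraries. TFAP2C, with 11 counts in the triptolide and 5 in the untreated libraries, overlapped between the groups and was not tested. PAPPA2, PAPPA, ADAM12 and HTRA4 are known from trophoblast and moved the same way, and the part of these markers in those values was not tested. Of 9 markers of decidual stroma, a known source of IGFBP1, 0 of 2 tested passed in edgeR, with 0 at an unadjusted p under 0.05, and 0 passed in DESeq2 and limma-voom. Their sum was 1.64 to 2.20 CPM with triptolide and 2.41 to 2.82 CPM untreated, and prolactin (PRL) had 2 counts in each group. Of 8 hepatocyte markers counted, the sum was 2.11 to 3.10 CPM with triptolide and 0.448 to 1.05 CPM untreated. TF, the transferrin gene, was the 1 tested and rose, and it made up most of the sum with triptolide. It passed the low-count filter only through the triptolide libraries. ALB had 15 counts with triptolide, 10 of them in library 2, and 2 counts untreated. With triptolide first, APOA1 had 13 and 4 counts, SERPINA1 18 and 15, and AHSG 1 and 3. APOB and FGB each had 1 and 1, and APOA2 had 1 and 0.

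For IGFBP7, known from fibroblasts and endothelium, both kinds of markers are given. Of 12 fibroblast markers, 4 of 8 tested fell and 0 rose, and the sum was 307 to 420 CPM with triptolide and 408 to 484 CPM untreated, most of it COL1A2. POSTN had 0, 1 and 2 counts with triptolide, against 133, 225 and 83 counts untreated. FAP was at 0 with triptolide, and COL1A1, THY1 and PRRX1 fell. POSTN and PRRX1 passed the low-count filter only through the untreated libraries. COL1A2, DCN, COL3A1 and PDGFRB did not pass in edgeR, with log2 fold changes of 0.03, 0.20, -0.51 and -0.36. With triptolide first, the untested LUM had 23 and 14 counts, TWIST1 9 and 5, and PDGFRA 8 and 21. Of 10 endothelial markers, 2 of 5 tested rose and 1 fell. The sum was 110 to 193 CPM with triptolide and 110 to 156 CPM untreated, most of it EGFL7. ESAM and VWF rose, VWF passing the filter only through the triptolide libraries, and CDH5 fell. EGFL7 and CLDN5 did not pass in edgeR. PECAM1, KDR and TIE1, not tested, stood higher in each triptolide library, and TEK and ERG overlapped. Of 8 blood markers, 4 of 4 tested rose, with a sum of 10.1 to 20.9 CPM with triptolide and 1.87 to 3.19 CPM untreated. HBA1, HBA2 and HBB among them passed the low-count filter only through the triptolide libraries. LYZ was at 0 with triptolide and HBG1 and HBG2 at 0 untreated. Acinar and endocrine markers were nearly absent, each list summing to no more than 0.175 CPM in any library. The part of these markers in the fall of IGFBP7 was not tested.

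**Figure D5:**
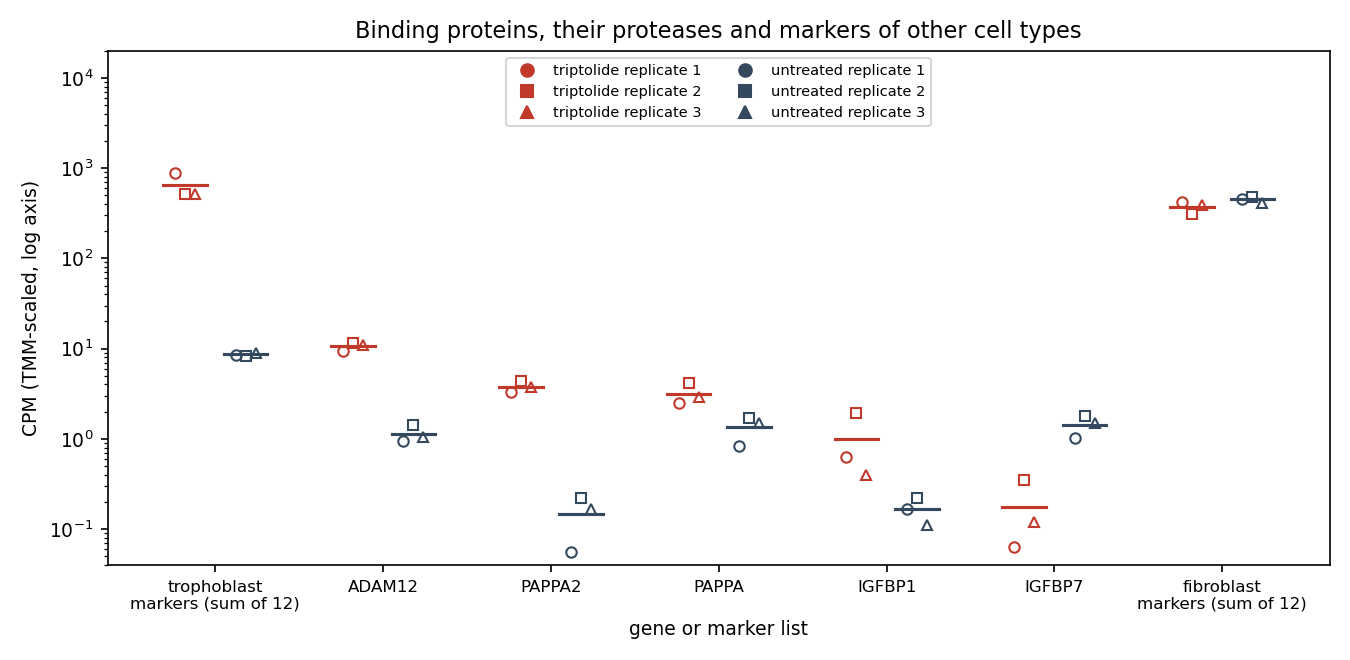
CPM per library (log axis) of the summed trophoblast and fibroblast markers and of 5 genes of the IGF axis, triptolide left and untreated right. Symbols are replicates and lines are means. Trophoblast markers, ADAM12 and PAPPA2 stood higher in each triptolide library, and IGFBP7 stood lower.

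The 2 called members were set against the 10288 genes averaging 5 CPM or more, by Pearson's r of log2(CPM + 0.1) over the 6 libraries. The patterns most like IGFBP7 were those of IFIT3 at r = 0.995 and LACTB at r = 0.993, both of which fell. Those most like IGFBP3 were ORC1 at r = 0.979 and UXS1 at r = 0.971, neither of which passed the test, with log2 fold changes of 0.04 and 0.18. These genes were picked for the highest r among 10288, so high values and a shared direction follow in part from the choice. The pattern of IGFBP7 also rests on few counts. These are descriptions over 6 libraries that share depth and preparation.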

How the data were processed

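Poly(A)-selected mRNA of 6 MIA PaCa-2 libraries was sequenced as paired reads of 150 bp, per the labels' protocols. The authors deposited whole-number counts per Ensembl gene, with no normalization visible in the values. HISAT2 and featureCounts are named without versions, per the submitters' processing notes. Of the build, annotation release and strand setting, none is given in the sources used here, and reads of antisense or overlapping genes cannot be told apart. Of 35716 IDs, 35639 had a symbol.

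The 15202 genes that passed filterByExpr were tested by the quasi-likelihood functions of edgeR 4.0.16 (R 4.3.3) after TMM scaling. The model held the group alone, and p-values were adjusted over all tested genes by Benjamini-Hochberg. Genes rose or fell at an adjusted p under 0.05. SE was the absolute log2 fold change over the square root of F. In the alternatives with no low-count filter or with the replicate block alone, p-values matched normal tails of log2 fold change over SE. They allowed little for each gene's own spread and are not comparable with those of the main fit. CPM were relative to library totals of 16302961 to 23262713 counts times the TMM factor, given as mean ± SD. Exon lengths and GC content came from GENCODE 29, which may not be the annotation used for counting. Length was the union of the exons of all transcripts of a gene. Intervals on sums are 95% exact binomial and cover counting error only. The fit was checked on simulated data.

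The members, lists and tests were chosen with earlier results of these data known. Named were all 10 members, IGF1, IGF2, INS, IGFALS, PAPPA and PAPPA2, called pathway genes (up to 4 a list and direction, or the 2 most abundant where none was called), and the 2 genes most like each called member. ADAM9 and ADAM28 were named beside the called proteases of their list. Alternatives were RLE factors, library totals, ribosomal protein scaling (82 genes), DESeq2 1.42.0, voom in limma 3.58.1, omission of the low-count filter, a stricter one at 5 CPM on average, a replicate block, a GC offset, and each library left out. An unfiltered fit without triptolide library 2 was added after seeing the data. Protein sequences were not used here.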

Additional observations from a re-analysis of the deposited data

How the results depend on the processing

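Over all tested genes, 1527 rose and 884 fell. Without single libraries, 953 to 1580 rose and 407 to 1035 fell, the lowest of both without untreated replicate 2. Leaving out untreated replicate 1 gave 531 that fell, and triptolide replicate 3 gave 457. Ribosomal protein scaling gave 1175 and 128, a mean of at least 5 CPM 584 and 336 (fewer genes tested), the GC offset 1841 and 2213, and that offset with the replicate block 1417 and 1448. The share of calls that were higher was 63.3%, against 90.2% with ribosomal protein scaling, 73.7% with library totals, 45.4% with the GC offset and 49.5% with the offset and block. Over all genes the median log2 fold change was 0.167 with ribosomal protein scaling and 0.127 in the unfiltered fit, against -0.004.

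Of the members, 1 rose and 1 fell. The number higher was 0 with ribosomal protein scaling, a mean of at least 5 CPM and DESeq2, 2 with limma-voom, 4 with no low-count filter, 2 with that and without triptolide replicate 2, and 0 to 2 without single libraries. Over all genes, 1483 of 15202 were higher with limma-voom and 1505 with DESeq2. With no low-count filter 2115 of 35716 were higher, and 2000 of 33587 when triptolide replicate 2 was also left out. IGFBP1, among the 4 unfiltered calls, was tested there only because the filter was dropped. The members higher without single libraries were not the same genes: IGFBP3 without triptolide replicate 1, IGF2R without triptolide replicate 2, IGFBP1 without triptolide replicate 3, and IGFBP1 and IGFBP5 without untreated replicate 2, so that IGFBP3 kept its call in 1 of these 6 fits. The number lower was 1 in all but the filter at 5 CPM (0), which leaves IGFBP7 out. Pathway genes that fell numbered 3, against 1 with library totals, 1 with ribosomal protein scaling, 0 at 5 CPM and 1 to 4 without single libraries.

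No pairing by replicate number was seen: the correlation of deviations between same-numbered libraries was 0.03, -0.04 and -0.44 for replicates 1, 2 and 3. Between differently numbered libraries it ran from -0.277 to 0.312. With deviations taken from means of 3 libraries, this cannot exclude that same-numbered samples were prepared together. With the replicate block, 3 members were higher and 1 lower, IGFBP5 and IGF2R having adjusted p-values of 0.0281 and 0.0449 in edgeR. Over all 15202 genes tested, that fit called 1523 higher, and its p-values allowed little for each gene's own spread. With the GC offset and the block together, 0 members were higher and 1 lower.

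The sign of genes without a call turned for IGFBP4 with the GC offset (-0.0813), with that offset and the block (-0.0837), and without triptolide replicate 1 or untreated replicate 1 (range without single libraries -0.0454 to 0.2125). It turned for IGFBP6 with the GC offset (-0.0791), with that offset and the block (-0.0765) and without triptolide replicate 1 (range -0.0946 to 0.2736), and for IGF1R without untreated replicate 3 (range -0.0413 to 0.2815). The causes were not tested. Depth limits IGFBP1, IGFBP5 and IGFBP7, each with few counts in at least 1 group.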
